A study of Rattus norvegicus with 24 samples.

Results

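Messenger RNA of 47 genes for the proteins of the cytosolic ribosome was followed over 24 expression arrays of rat brain and pituitary. The genes were chosen by symbol alone: every gene of the array annotation whose single symbol starts with Rpl, Rps or Rplp and a number, without pseudogenes and without the Rps6k kinases. They were 47 of 14217 annotated genes, 33 for the large subunit and 14 for the small subunit, and each was read from its probe set with the highest mean. A further 36 probe sets carried several symbols with a ribosomal protein gene among them. Those are given below as a group and without gene names. Rplp1, Rplp2, Rps19 and Rps27a had no probe set of their own symbol alone and were not analysed here.

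The rats were of 2 strains, the spontaneously hypertensive rat (SHR) and its control with normal blood pressure, the Wistar-Kyoto rat (WKY). In SHR, 5 arrays held the rostral ventrolateral medulla (RVLM), 4 the supraoptic nucleus (SON), 5 the paraventricular nucleus (PVN) and 5 the pituitary's neurointermediate lobe (NIL). The WKY arrays, 5 in number, held the RVLM. Each array held pooled RNA of 5 male rats of 10 to 13 weeks (10 to 12 weeks for NIL array 2), with no treatment or engineered allele in the labels, so that n counts pools. Values are the deposited intensity, a linear signal per probe set. Differences are on the log2 scale after each array was shifted to a common median.

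Every ribosome is built from a large and a small subunit, each made of ribosomal RNA and many small proteins made in step with one another. Most of their mRNAs open with a C and a run of pyrimidines, the terminal oligopyrimidine (TOP) tract, through which mTOR and the RNA-binding protein Larp1 set how strongly they are translated. Magnocellular neurons of the SON and PVN and melanotrophs of the NIL make large amounts of secreted peptide, and the RVLM holds the neurons that drive sympathetic outflow.

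The tract is a known feature of such genes that the symbol rule did not use, so the 25 bases before and the 25 from the RefSeq start are printed (GRCr8, gene strand, longest run of C and T in capitals). The first 7 genes differed most between the structures in the shared pattern described below, and the last 5 stood apart from it.
Rps15, chr7:10068091-10068140, minus strand: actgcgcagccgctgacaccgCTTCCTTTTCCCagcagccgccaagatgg
Rpl18, chr1:105325245-105325294, plus strand: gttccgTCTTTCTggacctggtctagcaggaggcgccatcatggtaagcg
Rpl22, chr5:168117936-168117985, plus strand: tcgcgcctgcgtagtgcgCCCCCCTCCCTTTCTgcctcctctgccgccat
Rpl12, chr3:36661915-36661964, plus strand: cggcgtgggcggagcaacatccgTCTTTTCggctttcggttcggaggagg
Rplp0, chr12:46718366-46718415, minus strand: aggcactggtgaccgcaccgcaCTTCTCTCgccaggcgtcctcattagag
Rps3, chr1:163195752-163195801, minus strand: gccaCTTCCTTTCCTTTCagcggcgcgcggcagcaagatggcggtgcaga
Rpl35, chr3:43165897-43165946, minus strand: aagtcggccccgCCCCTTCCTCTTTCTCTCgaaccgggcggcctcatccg
Rpl39, chrX:121195872-121195921, minus strand: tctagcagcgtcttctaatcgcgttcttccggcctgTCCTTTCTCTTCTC
Rpl39l1, chr10:5966597-5966646, minus strand: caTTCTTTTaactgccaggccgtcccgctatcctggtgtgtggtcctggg
Rps27l, chr8:76443633-76443682, plus strand: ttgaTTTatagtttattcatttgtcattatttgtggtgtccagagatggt
Rpl7l1, chr9:21695693-21695742, plus strand: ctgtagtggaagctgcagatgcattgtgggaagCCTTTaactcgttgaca
Rps4y2, chr4:183000888-183000937, plus strand: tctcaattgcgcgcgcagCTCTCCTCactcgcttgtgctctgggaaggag

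Promoter windows were found for 42 of the 47 genes. A run of at least 8 C or T bases on the gene strand lay within the 50 bases in 29 of them (69.0%), against 6485 of 33469 RefSeq genes (19.4%). On the opposite strand the shares were 14.3% and 20.9%. The longest run had a median of 10 bases in the ribosomal genes and 5 in all genes. Among the first 7 genes printed the run had 18 bases in Rpl35, 15 in Rpl22, 14 in Rps3, 12 in Rps15, 8 in Rplp0 and 7 in both Rpl18 and Rpl12. Among the last 5 it had 14 in Rpl39, 8 in Rps4y2, 7 in Rpl39l1, 5 in Rpl7l1 and 3 in Rps27l, so that the 2 sets overlapped. Over the full 300 bases and on either strand, CTTTCC was found in 42.9% of the ribosomal promoters and 26.4% of all promoters. CCGGAA, a core bound by Ets family factors, was found in 38.1% and 15.0%. CTTTCC can lie inside a run of C and T. These matches describe letters in windows and were not tied to the array values.

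Of the 47 genes, 37 had a mean log2 intensity of 10 or more over the 24 arrays. Rpl39, Rpl7l1, Rps27l, Rpl26l1, Rps4y2 and Rpl39l1 were dimmer, and Rps13, Rpl30, Rpl28 and Rpl3l were at or below the intensity needed for testing. Brightness also depends on the probes and was not compared between genes. The filter kept 42 members in the strain comparison and 43 in the comparison of structures, where Rpl39l1 passed through its level in the NIL alone. Its NIL comparisons were therefore set by the filter and are given as a description. Counts of called members with all SHR arrays are also given without it. It is included in the other counts for pairs with the NIL, those of groups that did not overlap and those with an array left out. Rpl3l, the paralogue of Rpl3 known from heart and skeletal muscle, had intensities of 1.052 to 13.03 over all arrays. Rpl3 itself lay between 2273, on SHR RVLM 2, and 4749, on a SON array.

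Before any comparison, 2 arrays stood apart. On SHR RVLM 2 the 42 tested members lay at a median of -0.96 (log2) from their own means over the 24 arrays, while the other SHR RVLM arrays lay between -0.29 and 0.12 and the WKY arrays between -0.19 and 0.07. It had the lowest value of the 10 RVLM arrays for 40 of the 42 members (95.2%), against 32% of all tested genes. The exceptions were Rps27l and Rpl7l1. PVN 3 did not differ in this way (-0.05, other PVN arrays -0.39 to 0.02). On PVN 3 the 3′ to 5′ signal ratio of the actin control probe sets was 7.01 and that of the GAPDH probe sets 3.33, where the other arrays had 2.18 to 3.86 and 1.07 to 1.43. Its summed markers of choroid plexus and meninges were 8528, and those of oligodendrocytes 8039, the highest of the PVN arrays in both cases. The main counts and medians that use SHR RVLM 2 or PVN 3 are therefore given with and without it, and single genes where their value without it is printed.

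**Figure D1:**
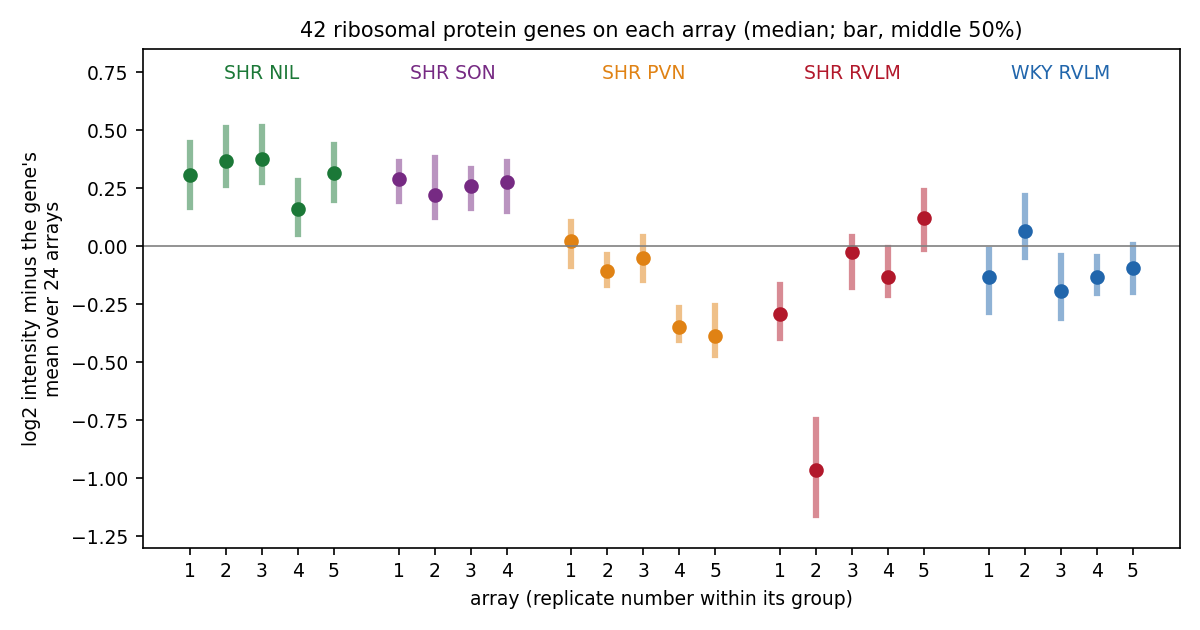
Median log2 intensity of the 42 tested genes on each array, relative to each gene's mean over the 24 arrays, with a bar for the middle 50% of the genes. NIL and SON arrays lie above 0, and SHR RVLM 2 lies at -0.96, below every other array.

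Defining markers of the structures were checked first. Pomc and Tbx19, markers of melanotrophs, had means of 867.8 ± 254.3 and 511.3 ± 76.74 in the NIL (SD, n = 5), and Pnmt, the enzyme of adrenaline synthesis, had 191.9 ± 50.79 in SHR RVLM (SD, n = 5). Avp, the vasopressin gene of magnocellular neurons, read 4592 to 5610 in the SON, 3893 to 5284 in the PVN and at most 27.7 in the RVLM. Other RVLM markers were mixed. Dbh was highest there (mean 38.12 in SHR), and Slc17a6 was highest in the PVN (799, SHR RVLM 698.9). Th was higher in the SON (476.4) and PVN (243.1) than in SHR RVLM (121.9). Crh and Trh were highest in the PVN (means 354.1 and 777.2) but fell to 38.08 and 138.2 on their lowest PVN arrays. The other PVN markers had higher means in the SON than in the PVN: Sim1 (96.78 and 77.33), Oxt (4513 and 4118) and Avp (5056 and 4453). The NIL also held anterior pituitary mRNA, with a sum over 6 hormone genes of 2946 to 16650, against 95.8 to 237.6 on the other arrays. Cell makeup differed widely between the structures. Summed neuron markers were 1914 to 2152 in the NIL, 4479 to 5051 in the SON, 4435 to 5221 in the PVN and 9196 to 12340 in the RVLM. Between NIL and SON the sum followed Snap25, Nefl and Stmn2. The dim Rbfox3 (means 42.06 and 40.19) and Syt1 (35.5 and 35.3) were alike in both. Oligodendrocyte markers were 627.5 to 747.7 in the NIL and 11670 to 18350 in the RVLM.

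The first comparison asked whether the RVLM of hypertensive rats differed from that of control rats. No ribosomal protein gene passed the test between SHR and WKY (0 of 42, limma, Benjamini-Hochberg adjusted p under 0.05), and 0 of 42 had an unadjusted p under 0.05. Over all genes, 147 of 10400 were called (1.41%, 0.548% higher and 0.865% lower). Groups that did not overlap were found for 0 members and for 3% of all genes. Of the members, 40 were lower in SHR and 2 were higher, with a median difference of -0.16 against -0.03 for all tested genes. The 13 small subunit genes had a median of -0.23 and the 29 large subunit genes -0.15.

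That shift changed most with 1 array. With SHR RVLM 2 left out, 20 members were higher and 22 lower in SHR, the median was -0.0035, and the single differences ran from -0.10 to 0.15. Without SHR RVLM 5 the median was -0.26, with 0 higher and 42 lower, and without any other single array it lay between -0.22 and -0.13. In the fit without SHR RVLM 2, again 0 of 42 were called (137 of 10410 genes, 1.32%, 0.567% higher and 0.749% lower), and 0 had an unadjusted p under 0.05. The probe sets with several symbols moved alike, from a median of -0.24 to -0.04, with 0 of 35 called in both fits and 1 of 35 at an unadjusted p under 0.05.

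Rps3, which lines the entry channel of the mRNA, had the lowest difference. Its intensities were 1506, 628.4, 1682, 1446 and 1945 on the SHR arrays and 1677, 1930, 1755, 1504 and 1501 on the WKY arrays. The 4 SHR arrays other than the second spanned the WKY range. The difference was -0.33 ± 0.23 (SE, adjusted p = 0.718), and -0.03 without SHR RVLM 2. Rps29, Rps15a and Rpl37a followed, at -0.32, -0.30 and -0.29, and at -0.10, -0.06 and -0.04 without that array. None of these 4 differences passed the test.

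The highest differences were 0.02 for Rpl21, 0.0009 for Rps27l, -0.0007 for Rpl39 and -0.03 for Rps4y2. Rpl21 gave 0.15 without SHR RVLM 2 (adjusted p = 0.66). These 4 genes changed sign with some of the arrays left out and in no setting passed the test.

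Genes with known roles outside or at the edge of the ribosome gave the same picture. Rps6, the substrate of the S6 kinases, had a mean intensity of 3105 ± 574.7 in SHR and 3535 ± 487 in WKY (SD, n = 5 each). The difference was -0.23, and -0.08 without SHR RVLM 2. For Rplp0, the base of the stalk that recruits elongation factors, it was -0.14 and 0.02. Rpl5 and Rpl11, which carry the 5S RNA and can bind Mdm2, had -0.16 and -0.25, and then -0.01 and -0.06. The paralogues Rpl26l1 and Rpl7l1 lay at -0.04 each, beside -0.15 for Rpl26 and -0.20 for Rpl7. Without SHR RVLM 2 the paralogues lay close to their parents, Rpl26l1 and Rpl26 at 0.03 each, Rpl7l1 at -0.02 and Rpl7 at -0.05.

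**Figure D2:**
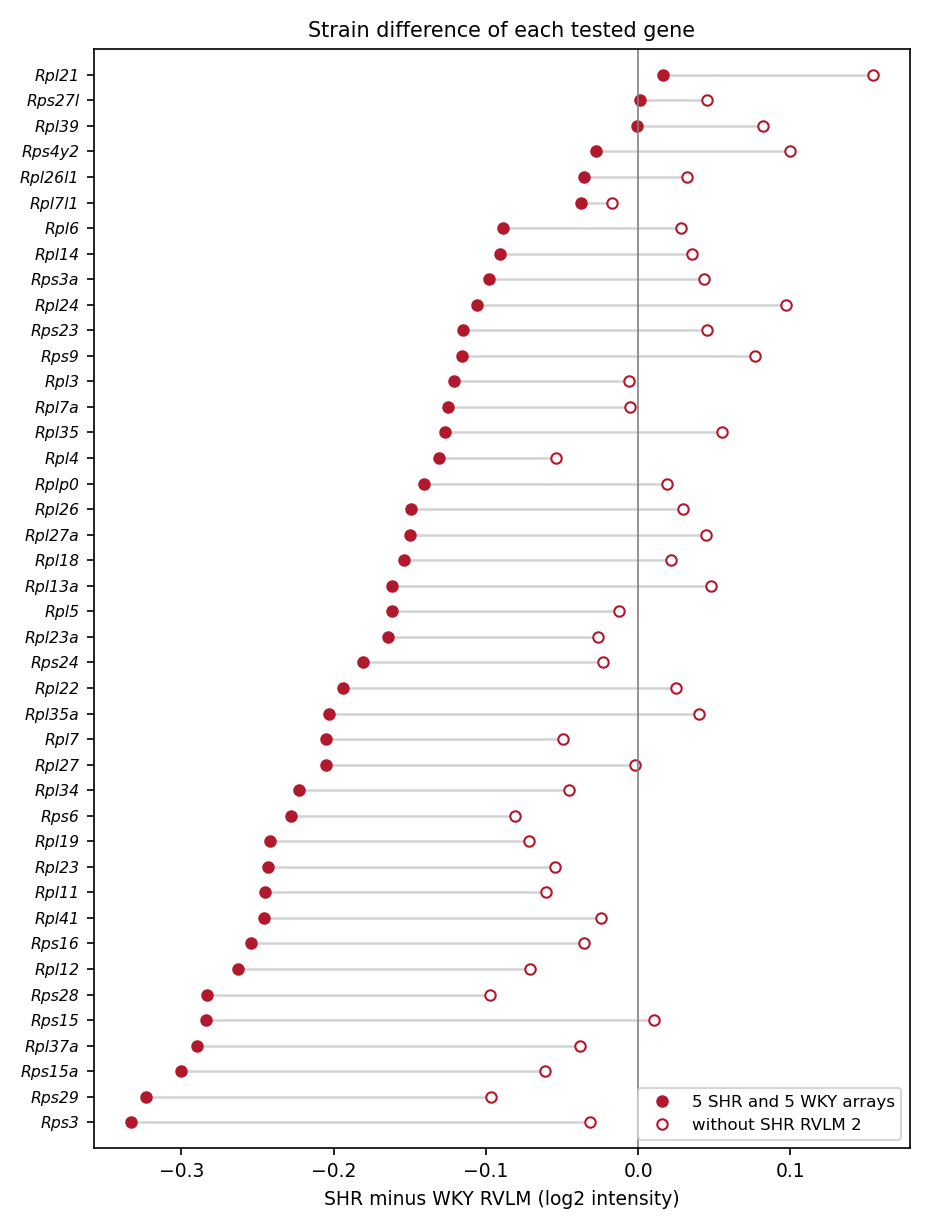
SHR minus WKY difference in the RVLM (log2) of each of the 42 tested genes, with all 10 arrays (filled) and without SHR RVLM 2 (open). Filled points have a median of -0.16 and open points of -0.0035, and no gene passed the test in either fit.

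The low level on SHR RVLM 2 was not confined to the cytosolic ribosome. The members' median gap to the mean of the other 4 SHR RVLM arrays was -0.88, and that of all tested genes -0.12. Rps3 had a gap of -1.51, Rps15 of -1.47, Rpl37a of -1.26 and Rpl35a of -1.21. The probe sets with several symbols had a gap of -1.02, with 35 of 35 at their lowest on that array. Respiratory chain genes (81 of 85 lowest, gap -0.74), mitochondrial ribosomal protein genes (67 of 73, -0.61) and genes with proteasome symbols (33 of 37, -0.49) were low there as well.

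Other genes of protein synthesis were less displaced. Of the initiation factors 26 of 41 were lowest on SHR RVLM 2 (gap -0.33), of the genes for ribosome assembly 18 of 39 (-0.21), of the elongation and release factors 1 of 6 and of the mTOR axis 1 of 15 (0.07). This array had the lowest actin 3′ to 5′ ratio of the 24 (2.18), with a GAPDH ratio of 1.13. Its summed markers of neurons (11300, SHR RVLM range 10080 to 12340) and oligodendrocytes (14360, range 12460 to 15660) lay inside the range of its group. Markers of microglia (531.3), endothelium (1030), choroid plexus and meninges (2513) and blood (357) were the lowest of their group. The part of any of these values in the low ribosomal signal was not tested.

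**Figure D3:**
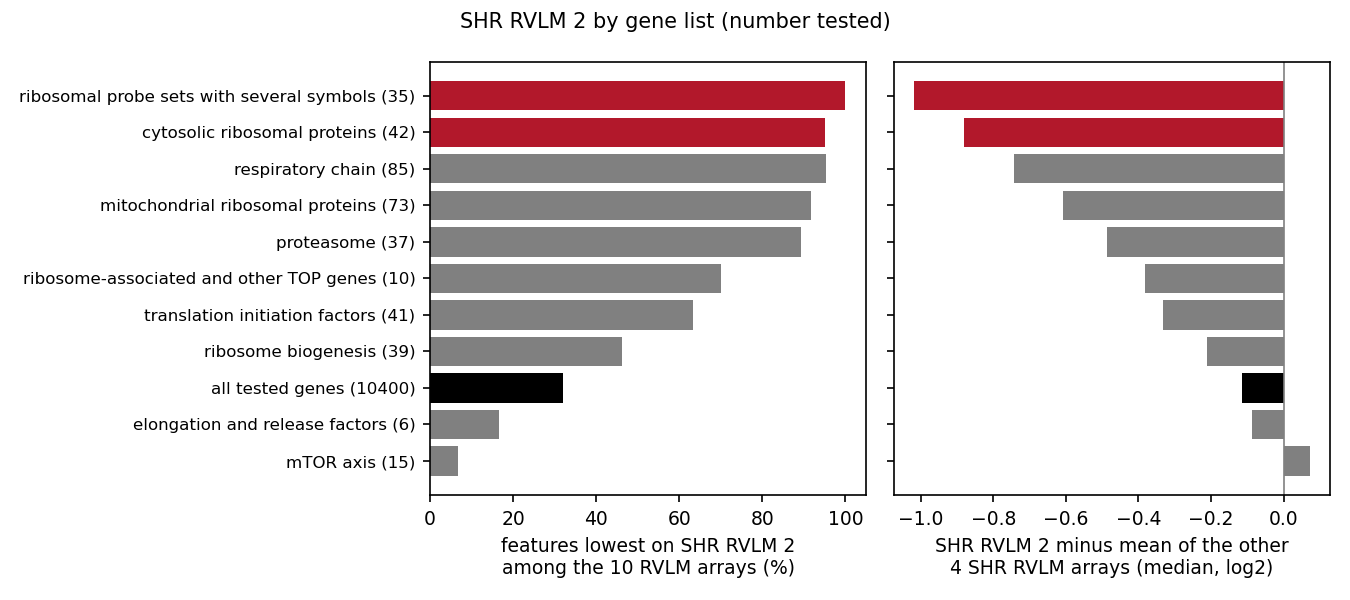
For each gene list, the share of tested features with their lowest RVLM value on SHR RVLM 2 (left, %) and the median gap of that array to the mean of the other 4 SHR RVLM arrays (right, log2). Ribosomal protein genes (95.2%, -0.88) and respiratory chain genes (95.3%, -0.74) lie far from all tested genes (32%, -0.12).

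The members moved together from array to array. After the group means were removed, each tested member was set against the median of the other members over the 24 arrays. Pearson's r had a median of 0.94 and was over 0.8 for 35 of 42 genes. Without SHR RVLM 2 the median was 0.89. The lowest values belonged to Rps27l (0.23), Rpl7l1 (0.32), Rpl39 (0.38), Rpl26l1 (0.53) and Rps4y2 (0.62), the dimmest of the genes tested in the strain comparison. The arrays share their scaling, so these values are a description.

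Over 24 arrays and among 10530 other genes, the profiles most like the members' median were those of Eef1b2 (r = 0.94), Arf4 (0.94), Gabarap (0.93), Atp5f1e (0.93) and Selenok (0.92). Without SHR RVLM 2 they were 0.90, 0.91, 0.91, 0.87 and 0.86. Eef1b2 encodes a subunit of the exchange factor for the elongation factor eEF1A.

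The second set of comparisons asked how the 4 structures of the SHR rat differ. Ribosomal protein mRNA was higher in the NIL and SON than in the PVN and RVLM. The members' median deviation was 0.31 ± 0.09 in the NIL (SD, n = 5), 0.26 ± 0.03 in the SON (n = 4), -0.17 ± 0.18 in the PVN (n = 5) and -0.26 ± 0.42 in the RVLM (n = 5), the last -0.08 ± 0.17 without array 2 (n = 4). In WKY RVLM it was -0.10 ± 0.10 (n = 5). Of the 43 tested members, 40 differed between the structures (93%, limma moderated F test), against 80% of all tested genes, and 39 of 42 without Rpl39l1. Without PVN 3 the counts were 39 members and 82.3%, and with any single array left out between 38 and 43 members were called. Rpl13a (adjusted p = 0.0889), Rps29 (0.121) and Rps15a (0.205) did not pass.

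The highest mean lay in the NIL for 20 members, in the SON for 19 and in the RVLM for 4, and in the PVN for 0. The lowest lay in the RVLM for 28, in the PVN for 14 and in the SON for 1. Rpl39l1 was among the 20 and the 14, and these counts use all SHR arrays. The order of PVN and RVLM changed with SHR RVLM 2. By sign alone, 28 members were higher and 15 lower in the PVN than in the RVLM (5926 and 4670 of 10596 genes). Leaving out that array gave 17 and 26 (5647 and 4965 of 10612 genes). The structures of highest and lowest mean were not counted for all genes. In tissue RNA, a smaller number of cells of a type and less RNA per cell cannot be told apart. The structures differ in cell makeup, as the summed markers above show, and the part of that in the order was not tested.

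**Figure D4:**
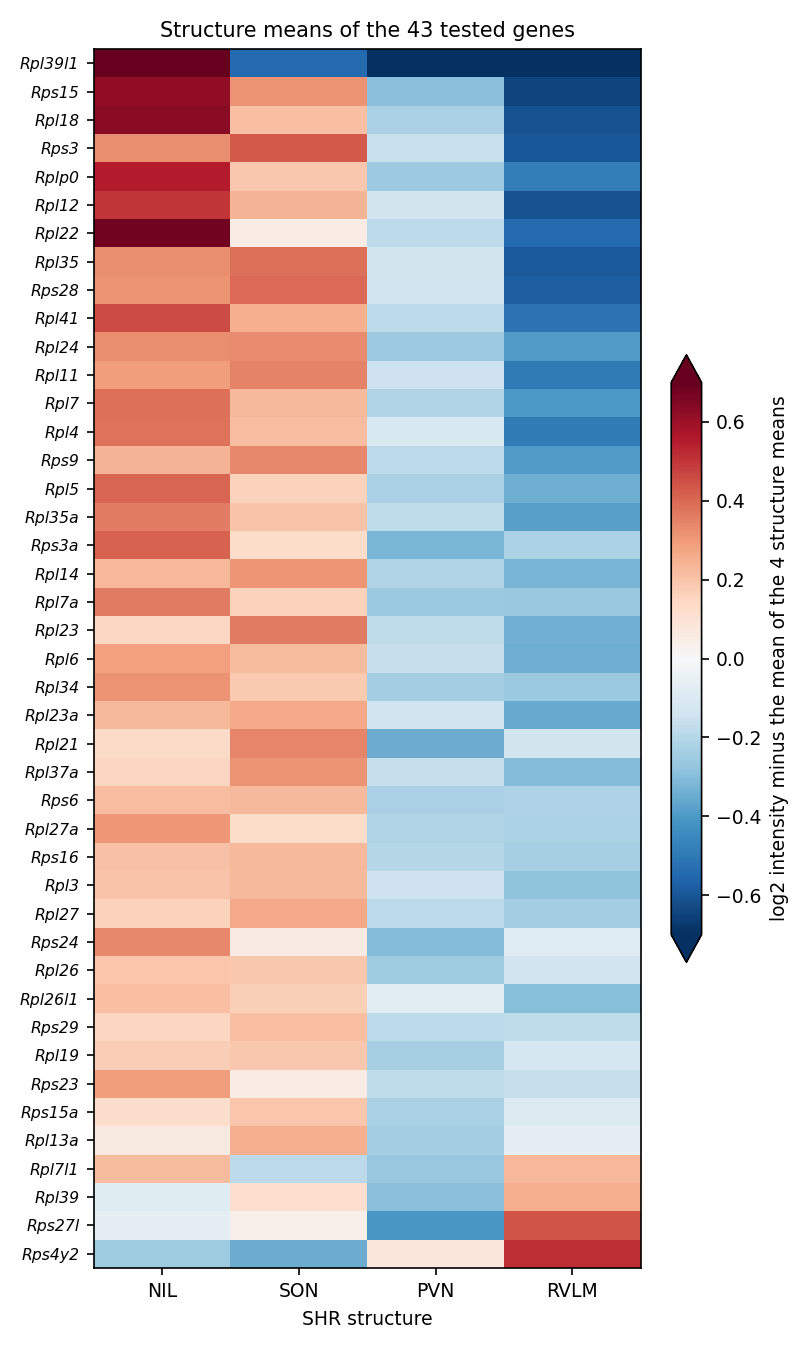
Structure means of the 43 tested genes in SHR rats, as log2 intensity relative to the mean of the 4 structures (colour, limited to ±0.7). Most rows are red in NIL and SON and blue in PVN and RVLM. Rpl39l1 exceeds the scale (3.50 in NIL), and the 4 lowest rows, Rpl7l1, Rpl39, Rps27l and Rps4y2, are highest in the RVLM.

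NIL against PVN gave 32 members higher and 0 lower, where 57.1% of all genes were called, 29.8% higher and 27.4% lower. The median was 0.46 for the members and 0.03 for all tested genes. Groups that did not overlap were found for 30 members, Rpl39l1 among them, and for 39.3% of all genes. Without Rpl39l1 the count called higher was 31 of 42, with a median of 0.45. Without PVN 3, again 32 members were called (59.2% of all genes, 31.1% higher and 28.1% lower), with a median of 0.49. The 24 large subunit and 8 small subunit genes among them were out of 30 and 13. Against the RVLM, 33 members were higher in the NIL and 2 lower (67.8% of all genes called, 37.6% higher and 30.2% lower), with a median of 0.58 where all genes had 0.10. Leaving out Rpl39l1 gave 32 and 2 of 42, with a median of 0.57. The counts were 31 and 3 without SHR RVLM 2 (66.5% of all genes, 35.9% higher and 30.6% lower), with a median of 0.44. Groups did not overlap for 24 members, Rpl39l1 among them, and 57.1% of all genes.

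Rps15, a protein of the head of the small subunit, had the largest range of structure means among the bright genes with all arrays (1.27). Its intensities were 2812, 3139, 3404, 2667 and 3651 in the NIL, 2545, 2553, 2425 and 2448 in the SON, and 1515, 1688, 1689, 1618 and 1536 in the PVN. In SHR RVLM they were 1266, 576.3, 1498, 1395 and 1739, and in WKY RVLM 1375, 1754, 1365, 1389 and 1400. Every SON value was above all PVN and RVLM values. NIL and SON did not overlap in these deposited values but did after the shift to a common median. NIL exceeded PVN by 0.91 ± 0.21 (SE, adjusted p = 0.000939) and RVLM by 1.27 ± 0.21 (adjusted p = 1.89e-05), the latter 0.97 without SHR RVLM 2. NIL minus SON was 0.31 (adjusted p = 0.27).

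Rpl18, a large subunit protein, read 2751, 2613, 2709, 2420 and 2739 in the NIL and 1919, 2100, 1873 and 1943 in the SON. It read 1422, 1491, 1347, 1423 and 1410 in the PVN and 931.8, 695.4, 1354, 1120 and 1313 in SHR RVLM. No NIL value overlapped with any other structure. The NIL was higher than the RVLM by 1.24 ± 0.15 (adjusted p = 3.37e-07, 1.06 without SHR RVLM 2) and than the PVN by 0.86 ± 0.15 (adjusted p = 6.52e-05). Its difference from the SON, 0.42 ± 0.16 (adjusted p = 0.0371), lost its call in 10 of 32 alternatives.

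Rpl22, an RNA-binding protein of the large subunit, stood highest in the NIL with 1893, 1961, 1944, 1690 and 1929. It had 1180, 1260, 1198 and 1208 in the SON, 1041, 1102, 1112, 955.3 and 849.6 in the PVN, and 725.2, 443.3, 899.6, 899.7 and 952.8 in SHR RVLM. The gap to the SON was 0.62 ± 0.19 (adjusted p = 0.00921), called in all 32 alternatives. It exceeded the PVN by 0.86 (adjusted p = 0.000313) and the RVLM by 1.22 (adjusted p = 3.17e-06), the latter by 1.00 without SHR RVLM 2. Without PVN 3 the first was 0.91.

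Few ribosomal genes were called between the NIL and the SON. There, 4 members were higher in the NIL and 0 lower (9.3%), where 51.2% of all genes were called (26.5% higher and 24.7% lower), and the median was 0.0028. Groups did not overlap for 13 members, Rpl39l1 among them, and 49.9% of all genes. Rpl39l1 was also among the 4 called, and without it 3 of 42 were called, with a median of -0.0014. They were Rpl22, Rpl18 and Rpl7l1, of which Rpl7l1 (0.40, adjusted p = 0.00729) is named after its value was seen. When SHR RVLM 2, an array of neither structure that enters the pooled spread, was left out, the count was 11, with 10 higher and 1 lower (27.3% and 25.5% of all genes). A p that misses the threshold does not show equal levels.

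PVN against SON gave 0 members higher and 11 lower, against 9.02% and 7.12% of all genes (16.1% together). The median was -0.43 where all genes had 0.01, and groups did not overlap for 30 members, against 12% of all genes. The largest among the called genes were Rpl21 (-0.69 ± 0.13, adjusted p = 0.00106), Rpl24 (-0.59 ± 0.17, adjusted p = 0.0228) and Rpl23 (-0.54 ± 0.17, adjusted p = 0.0378). Rps15 (-0.60, adjusted p = 0.0744) and Rps3 (-0.59, adjusted p = 0.0858) had differences of like size that were not called. For Rpl21 the values were 1480, 1459, 1380, 1501 and 1489 in the PVN and 2161, 2460, 2433 and 2569 in the SON. Each SON array was above each PVN array. The difference was -0.68 without PVN 3. The call was kept by Rpl21 in all 32 alternatives, by Rpl24 in 29 and by Rpl23 in 22.

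The number called in this pair moved with single arrays, while the median stayed between -0.47 and -0.39 with any single array left out. It was 19 without PVN 3 (23% of all genes, 11.6% higher and 11.4% lower) and 34 without SHR RVLM 2 (9.44% higher and 8.47% lower), which belongs to neither group but enters the pooled spread. It fell to 7 without PVN 2, 2 without PVN 4, 3 without PVN 5, 3 without SON 1, 4 without SON 2, 2 without SON 3 and 3 without SON 4, where 3.96% to 5.49% of all genes were called lower. With the values as deposited, and not shifted to a common median, 30 were called (10.3% of all genes higher and 11.2% lower).

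SON against RVLM gave 29 members higher and 3 lower (45.7% of all genes called, 25.4% higher and 20.3% lower), with a median of 0.51. They were 28 and 3 without SHR RVLM 2 (44.1% of all genes, 23% higher and 21.1% lower), with a median of 0.37. The largest rises were those of Rps3, by 1.02 ± 0.23 (adjusted p = 0.000914), Rpl35, by 0.98 ± 0.17 (adjusted p = 6.29e-05), and Rps28, by 0.97 ± 0.20 (adjusted p = 0.000356). Rps3 had 2917, 2764, 2697 and 3245 in the SON and 1506, 628.4, 1682, 1446 and 1945 in the RVLM, with no overlap. The rises without SHR RVLM 2 were 0.72, 0.79 and 0.79. Groups did not overlap for 23 members and 41.3% of all genes.

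PVN against RVLM also gave few calls among the members: 3 higher and 3 lower (45.6% of all genes called, 26.3% higher and 19.3% lower), with a median of 0.12 against 0.07 for all genes. Groups did not overlap for 2 members and 26% of all genes. The direction of this pair was not settled. Leaving out SHR RVLM 2 gave 2 higher and 10 lower (44.8% of all genes, 24% higher and 20.8% lower) with a median of -0.06. Without PVN 3 it was 3 and 3 (48.2% of all genes, 26.7% higher and 21.5% lower), and without SHR RVLM 5 it was 9 higher and 3 lower (25.2% and 16.9%). With values as deposited 10 were higher and 3 lower (32.2% and 19.1% of all genes), and after quantile normalization 33 and 3 (30% and 19.6%). The higher genes were Rpl12 (0.48, adjusted p = 0.0162), Rpl35 (0.46, adjusted p = 0.0207) and Rpl4 (0.38, adjusted p = 0.00543), the lower ones Rps27l, Rpl39 and Rpl7l1. Rpl35 gave 0.28 (adjusted p = 0.0522) without SHR RVLM 2.

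The functional landmarks followed the shared order. Rplp0 had means of 2582 ± 161.7 in the NIL, 2003 ± 211.3 in the SON, 1438 ± 135.6 in the PVN and 1207 ± 255.7 in SHR RVLM (SD, n = 5, 4, 5 and 5). It was higher in the NIL than in the RVLM by 1.03 ± 0.16 (adjusted p = 4.94e-06), and by 0.87 without SHR RVLM 2. Rps6 had 4401 ± 271.7 in the NIL, 4409 ± 275.4 in the SON, 3151 ± 217.9 in the PVN and 3105 ± 574.7 in SHR RVLM. For it the SON exceeded the PVN by 0.46 (adjusted p = 0.0315) and the RVLM by 0.45 (adjusted p = 0.0123), the latter by 0.30 without SHR RVLM 2. Rpl5 and Rpl11, partners in the 5S particle, were higher in the NIL than in the RVLM by 0.75 (adjusted p = 3.15e-05) and 0.79 (adjusted p = 4.59e-05), and without SHR RVLM 2 by 0.60 and 0.61.

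The paralogues did not all share this pattern. Rpl39l1, a copy of Rpl39, which lines the exit tunnel for the new peptide, was high in the NIL alone. Its intensities there were 565.6, 498.5, 537.8, 489.2 and 511.3. On the other 19 arrays, WKY included, the highest was 51.87 (SON 2) and the lowest 1.701 (PVN 3), and most lay below the 26.4 that a mean needed for testing. The differences from PVN, SON and RVLM were 5.15 ± 0.51, 4.04 ± 0.54 and 4.81 ± 0.51 (SE), with no test since the NIL level admitted the gene. Against the PVN it was 4.40 without PVN 3. The size depends on dim values: over the alternatives it ran from 2.79 to 5.38 for the PVN, from 2.59 to 4.28 for the SON and from 2.80 to 4.96 for the RVLM, the lowest with a pseudocount. Rpl39 had 149.8 ± 34.47 in the NIL and 175.4 ± 25.1 in SHR RVLM (SD, n = 5 each), a difference of -0.34 (adjusted p = 0.0922). Without SHR RVLM 2 that difference was -0.42 (adjusted p = 0.0472). Over the NIL arrays the summed anterior pituitary genes ranged from 2946 to 16650 and Rpl39l1 from 489.2 to 565.6, and the part of that tissue in its level was not tested.

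Rps27l, the paralogue of Rps27 that p53 can induce, ran against the shared order. It read 127.8, 125.7, 132, 142.8 and 134.7 in SHR RVLM and 129, 134.5, 117.6, 141.3 and 127.3 in WKY RVLM. The other structures were lower, at 79.68, 89.06, 117.9, 93.49 and 123.8 in the NIL, 91.4, 106.5, 126.9 and 100.8 in the SON, and 68.15, 96.21, 51.22, 95.73 and 79.22 in the PVN. Only SON 3 reached the SHR RVLM range. The PVN was lower than the RVLM by 0.85 ± 0.15 (log2 -0.85, adjusted p = 9.7e-05), and by 0.72 (log2 -0.72) without PVN 3. NIL minus RVLM was -0.51 (adjusted p = 0.00564), and -0.55 without SHR RVLM 2. The SON difference, -0.41 (adjusted p = 0.0441), lost its call in 11 of 32 alternatives.

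Rpl7l1, a relative of Rpl7, was high in both the RVLM and the NIL. It had 174.3, 178.5, 168.9, 163.3 and 197.2 in SHR RVLM, 175.1, 210.1, 167.3, 199.1 and 181.7 in the NIL, 152, 123.8, 134.7 and 148.9 in the SON, and 143.8, 134.5, 110.3, 131.9 and 127.4 in the PVN. No PVN or SON value reached those of the other 2 structures. PVN minus RVLM was -0.50 ± 0.11 (adjusted p = 0.000996) and SON minus RVLM -0.42 ± 0.12 (adjusted p = 0.00673). With the mean of its probe sets in place of the brighter one, these were -0.31 (adjusted p = 0.057) and -0.28 (adjusted p = 0.0956). Rpl7 followed the shared order, with NIL minus RVLM at 0.78.

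Rps4y2, a copy of Rps4, was dim and highest in the RVLM, at 65.45 ± 16.43 in SHR and 64.71 ± 13.14 in WKY (SD, n = 5 each). It had 40.64 ± 8.685 in the NIL, 37.4 ± 5.215 in the SON and 49.21 ± 6.52 in the PVN. SON minus RVLM was -0.86 ± 0.22 (adjusted p = 0.00256) and NIL minus RVLM -0.77 ± 0.20 (adjusted p = 0.00219). Without SHR RVLM 2 they were -0.99 and -0.89. Rpl26l1, the paralogue of Rpl26, had 71.7 ± 4.862 in the NIL, 68.95 ± 2.27 in the SON, 57.54 ± 7.593 in the PVN and 47.5 ± 4.241 in SHR RVLM. NIL minus RVLM was 0.51 (adjusted p = 0.000425, 0.44 without SHR RVLM 2) for Rpl26l1. For Rpl26 it was 0.33 (adjusted p = 0.0521), with its lowest mean in the PVN. Rps13, under the filter, read 41.73 to 52.75 in the NIL and 10.57 to 38.46 elsewhere in SHR.

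**Figure D5:**
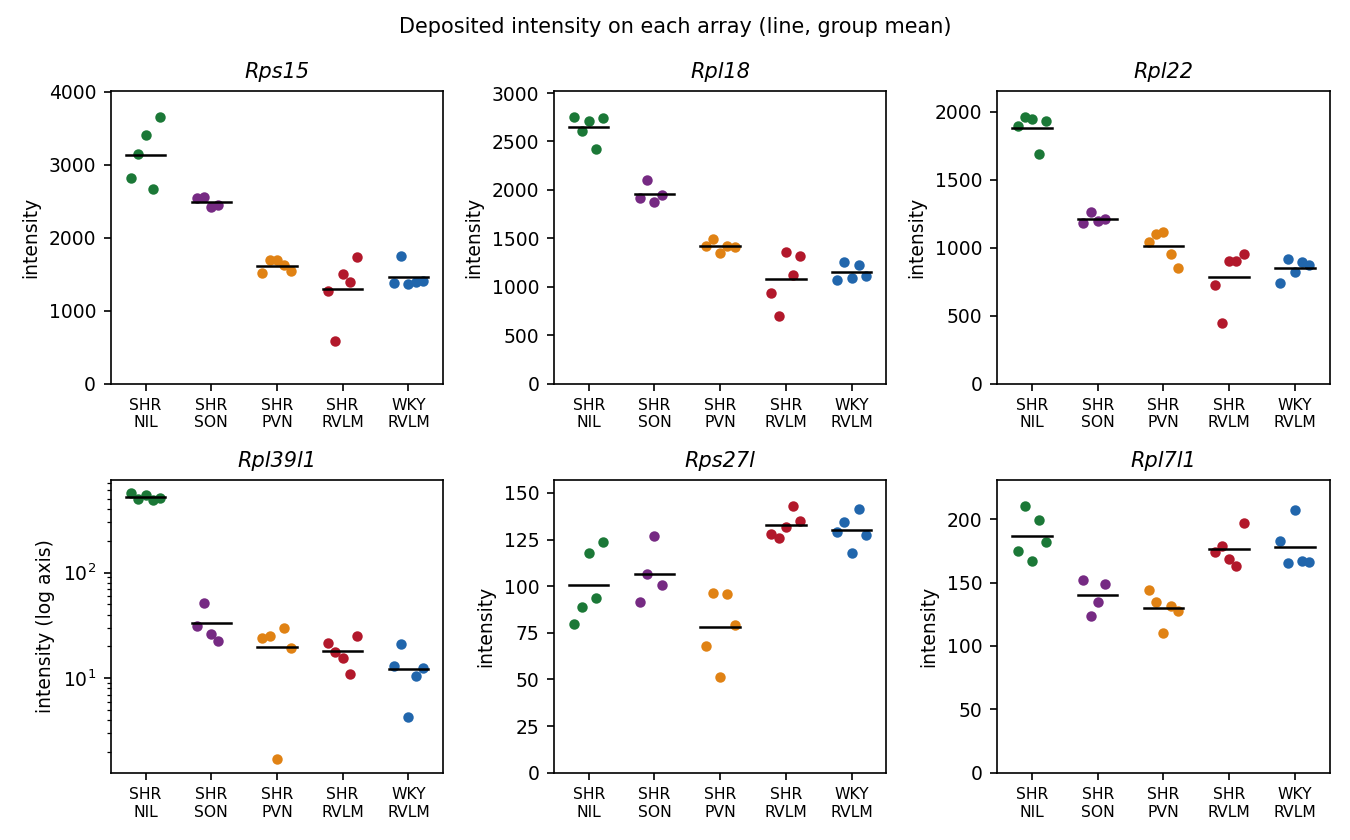
Deposited intensity of 6 genes on each array, with the group mean as a line (log axis for Rpl39l1, axes from 0 elsewhere). Rps15, Rpl18 and Rpl22 fall from NIL to RVLM, Rpl39l1 is high in the NIL alone, and Rps27l and Rpl7l1 are lowest in the PVN and high in the RVLM.

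Genes with 2 probe sets show how far a value depends on the probes. The second probe set of Rpl7 gave NIL minus RVLM at -0.99 and PVN minus RVLM at -1.89, where the first gave 0.78 and 0.19. That of Rpl14 gave -1.04 for NIL minus RVLM, against 0.56. For NIL minus RVLM the second probe sets of Rpl3 (0.86 against 0.48) and Rps24 (1.09 against 0.43) had the same direction as the first. That of Rpl7l1 gave 0.27 against -0.01. Signs also differed in other comparisons, as for Rps24 in PVN minus RVLM (0.09 against -0.22) and Rpl3 in NIL minus SON (0.24 against -0.03). Ribosomal protein genes have many near-identical copies and processed pseudogenes, and a probe set can bind mRNA of more than 1 of them. The 36 probe sets with several symbols, 35 of them tested, carried the shared order too. In the NIL, 27 were higher than in the PVN (29.8% of all genes), 31 than in the RVLM (37.6%) and 3 than in the SON (26.5%). In the PVN, 13 were lower than in the SON (7.12%). Their medians were 0.50, 0.81, 0.05 and -0.46. For NIL against RVLM without SHR RVLM 2, 31 were higher and 1 lower (35.9% and 30.6% of all genes), with a median of 0.56. Leaving out PVN 3 gave 28 higher in the NIL than in the PVN (31.1%) and 17 lower in the PVN than in the SON (11.4%).

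Other parts of the translation machinery were read from lists of related genes. For NIL against RVLM their counts stand beside the 37.6% of all genes called higher and 30.2% called lower (35.9% and 30.6% without SHR RVLM 2). Of 10 genes with TOP tracts or products bound to the ribosome, 7 were higher and 1 lower in the NIL than in the RVLM (median 0.78), and 6 and 1 without SHR RVLM 2. Rack1, a scaffold on the small subunit, rose by 1.03 (adjusted p = 4.63e-07) and Rpsa, a small subunit protein outside the symbol rule, by 0.96 (adjusted p = 1.42e-06). Nap1l1, a histone chaperone with a TOP mRNA, was lower there (-1.13, adjusted p = 4.58e-08). Against the PVN, 7 were higher and 1 lower (29.8% and 27.4% of all genes), and 8 and 1 without PVN 3 (31.1% and 28.1%). The largest rises with all arrays were those of Hnrnpa1 (0.93, adjusted p = 3.54e-07) and Eef2, the translocation factor (0.79, adjusted p = 2.04e-05).

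Initiation factors went both ways, in shares near or below those of all genes. In the NIL against the RVLM 14 of 41 were higher and 8 lower (median 0.20), and 11 and 8 without SHR RVLM 2, with Eif4b at 1.17 (adjusted p = 2.96e-09) and Eif5a2 at -3.32 (adjusted p = 4.15e-15). Genes for ribosome assembly had 15 higher and 5 lower of 39 (median 0.24), a share higher near that of all genes, and 14 and 5 without SHR RVLM 2, with Rrn3, a factor of RNA polymerase I, at 0.97 (adjusted p = 1.02e-07) and Rrs1 at -1.18 (adjusted p = 1.48e-06). In the list of elongation and release factors, which also holds the kinase gene Eef2k, 1 of 6 was higher and 1 lower. These were Eef2k itself at 1.32 (adjusted p = 2.2e-06) and Eef1a2, the form of neurons and muscle, at -1.70 (adjusted p = 5.99e-10).

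Mitochondrial ribosomal proteins, built into a separate ribosome, did not follow the cytosolic genes in this pair. Of 73, 14 were higher and 19 lower in the NIL than in the RVLM (median -0.07), and 10 and 28 without SHR RVLM 2. Mrpl47 had -1.37 (adjusted p = 3.63e-07) and Mrpl37 -1.06 (adjusted p = 1.97e-08). Of 15 genes of the mTOR axis 5 were higher and 5 lower in both fits, near the shares of all genes, with Tsc2 at 1.59 (adjusted p = 1.17e-10) and Akt1s1 at 1.02 (adjusted p = 1.08e-07). Proteasome symbols gave 7 higher and 13 lower of 37, and 7 and 15 without SHR RVLM 2, led by the immunoproteasome subunit Psmb9 at 3.33 (adjusted p = 5.26e-14). That list was made by symbol and also holds Psmc3ip, which is not a subunit gene and is among the 7 higher (1.47, adjusted p = 8.88e-08). Differences between lists were not tested.

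Between the strains, 1 of 41 initiation factors, 1 of 73 mitochondrial ribosomal proteins and 1 of 37 proteasome symbols were called. The same counts held without SHR RVLM 2. Of all genes 1.41% were called, and 1.32% without that array. The respiratory chain list had 1 of 85 called, lower in SHR, and without that array 1 higher and 1 lower. Among the initiation factors Eif3c was lower in SHR RVLM (-0.97, adjusted p = 2.08e-05), with means of 327.7 ± 39.24 and 625.3 ± 46.29 (SD, n = 5 each). Among the mitochondrial ribosomal proteins Mrpl4 was lower (-0.48, adjusted p = 0.00997), and among the proteasome genes Psmb8 was higher (0.64, adjusted p = 0.00786). The lists of TOP genes, elongation factors, ribosome assembly and the mTOR axis had 0 calls by limma, with all arrays and without SHR RVLM 2.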

How the data were processed

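Each of the 24 Affymetrix Rat 230 2.0 arrays measured RNA pooled from 5 rats, per the labels. The deposited values are a linear intensity per probe set. The submitters' processing notes name GCOS 1.2. Its settings, and calls of presence, were not given in the sources used here. The 2% trimmed mean of the deposited intensity was close to 100 on every array. Array medians lay between 35.9 and 46.5.

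From these, log2 values were taken (pseudocount 0), then moved array by array to the mean of the array medians. Control probe sets (57 of 31099) were left out. Probe sets with a mean above the 40th percentile (18625 per fit) were tested with lmFit and eBayes (intensity trend) of limma 3.58.1 in R 4.3.3, with calls at an adjusted p (Benjamini-Hochberg) under 0.05. For the strains the fit used the 10 RVLM arrays, for the structures all 19 SHR arrays. The scripts were checked on simulated data. Pools were taken as independent, though rats may be shared between structures. Pairs of structures have arrays in common, so no pair was set against another.

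Of the probe sets, 20826 carried 1 gene symbol, 436 several and 9780 none. RefSeq (GRCr8) matched 45 of the 47 genes by gene ID. Replicate numbers come from the titles, an unnumbered title being 1. Named genes were those with landmark roles, the paralogues, the 4 highest and lowest strain differences, the 8 largest ranges over structures, and the 3 largest called differences each way per pair. Members and lists were chosen with earlier results of these data known. Alternatives were other scalings, pseudocounts of 16 and 64, other filters, no trend, arrayWeights, a replicate block, other arrays in the fit, the mean of a gene's probe sets and each array left out.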

Additional observations from a re-analysis of the deposited data

Results flagged for a closer look

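By Dixon's test at the 95% level within a group of arrays, 25 of 235 gene and group combinations held a value far from the rest. The members move together from array to array, so 1 array can give many flags. The count was therefore not set against the 1 in 20 that chance gives for independent values. Of the 25, 9 lay on WKY RVLM 2, 3 on SHR RVLM 2 and 3 on PVN 3. Among the named genes, SHR RVLM 2 was far below its group for Rpl11 (1007) and Rpl21 (1199). WKY RVLM 2 was far above its group for Rpl11 (2132), Rpl26 (4710), Rpl3 (3764), Rpl35 (1799) and Rps15 (1754). NIL 4 was far below its group for Rpl22 (1690). Rpl3l, at very low intensity, had single high values on NIL 4 (13.03), PVN 1 (8.918) and WKY RVLM 5 (11.93).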

How the results depend on the processing

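Of 459 recomputed counts and medians, 428 stayed within 1.5 times the count or within the spread of replicates, and 31 moved. For medians that use SHR RVLM this spread is wide, since array 2 is part of it (SD 0.42, and 0.17 without it). The strain median of -0.0035 without SHR RVLM 2 therefore counted as unmoved. So did PVN against RVLM, whose median ran from -0.06 to 0.42 and changed sign. For these 2 comparisons the tally does not show stable medians. Of 1200 values of single named genes 1127 kept their label, 41 lost their call and 0 reversed a call. The strain comparison called 0 members in all 22 alternatives. NIL against SON (4 called) gave 9 with values as deposited, 16 after quantile normalization (median 0.127), 13 with arrayWeights and 19 with the 2 structures fitted alone, and 3 to 11 with single arrays left out. PVN against SON (11 called) gave 30 as deposited, 7 after quantile normalization (median -0.191), 24 and 27 with pseudocounts of 16 and 64, 3 with no filter, 6 with no intensity trend, 36 with arrayWeights, 25 with all 24 arrays, 25 with the 2 structures alone, and 2 to 34 with single arrays left out. PVN against RVLM (6 called) gave 13 as deposited, 36 after quantile normalization, 10 with a pseudocount of 64, and 6 to 12 with single arrays left out. Of all genes, 51.2%, 16.1% and 45.6% were called in these pairs in the main fit. The shares were 55.3%, 21.5% and 51.3% as deposited and 55.6%, 22% and 49.6% after quantile normalization. With single arrays left out they ran from 46.5% to 54.8%, 9.48% to 23% and 41.7% to 48.2%. For the other settings no share of all genes was computed, so their counts have no background here. The cause of the moved counts was not tested. Same-numbered arrays of different groups had correlations of deviations between -0.118 and 0.145, so the numbers were not taken as pairs. With the replicate block, PVN against SON gave 7 called, and Rpl18 (NIL against SON, adjusted p = 0.0686), Rpl23 (PVN against SON, adjusted p = 0.0534) and Rps27l (SON against RVLM, adjusted p = 0.0872) lost their calls. The number of arrays, 4 or 5 a group, limits the precision.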
